A study of Mus musculus with 2 samples.

Results

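The genes described here are 10 genes of the circadian clock, chosen by name from the array's annotation, with earlier results of these data known. The members are the transcriptional activators Arntl (also called Bmal1) and Clock, the repressors Per1, Per2, Per3, Cry1, Cry2, Nr1d1 and Nr1d2, and the output gene Dbp. They are 10 of 12393 genes that had a probe set, a group of short oligonucleotides read together as 1 value, annotated with a single gene symbol. All 10 were on the array, with 16 probe sets between them.

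The tissue was a piece of distal colon from mice carrying an IL-9 transgene (the line labelled Tg5) and from wild-type mice of the inbred strain FVB, spelled TVB in the series design. Interleukin-9 is a type 2 cytokine whose targets include mast cells. RNA of 4 mice was pooled for each genotype and each pool was read on 1 array, so there were 2 arrays and no replicate. Mice were kept specific pathogen-free. The promoter of the transgene, the age and sex of the mice and the hour of tissue collection are not given in the sources used here.

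The clock is a feedback loop of transcription. ARNTL and CLOCK proteins bind E-box DNA elements as a pair and turn on the Per and Cry genes, whose proteins then inhibit that pair. In a linked loop the same pair drives Nr1d1 and Nr1d2, which encode the nuclear receptors REV-ERBα and REV-ERBβ, and these repress Arntl, Clock and Cry1 through elements called ROREs. Dbp encodes a transcription factor of the PAR bZIP family that acts through D-box elements and is itself driven by ARNTL and CLOCK. In peripheral tissues of mice, colon included, Arntl and Dbp transcripts run in opposite phase over the day.

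These elements can be read in some of the members' promoters, which are shown because each carries an element that the loop is known to use. RefSeq promoters (GRCm38.p6), spanning 250 bases before to 50 bases after an annotated start, were found for 9 of 10 members (not Per2), in 13 promoters. The letters searched, on both strands, were CACGTG (E-box), CACGTT (E′-box), TTATGTAA and TTACGTAA (D-box), and TAGGTCA and TGGGTCA (RORE core). Of the 13 member promoters 2 held an E-box, against 7.15% of 32851 promoters in the table, and 3 held an E′-box, against 4.68%. A D-box was found in 1, against 1.06%, and a RORE core in 1, against 6.45%. The E-boxes were in Cry1 and Per1, the E′-boxes in Cry1, Cry2 and Nr1d1, both D-boxes in Per3 and the RORE core in Arntl. The 4 first lines give the 250 bases before the start and the last line a 30-base window after the start of Arntl, 5′ to 3′ on the gene's strand, with the elements in capitals.
Cry1, chr10:85185055-85185304, minus strand: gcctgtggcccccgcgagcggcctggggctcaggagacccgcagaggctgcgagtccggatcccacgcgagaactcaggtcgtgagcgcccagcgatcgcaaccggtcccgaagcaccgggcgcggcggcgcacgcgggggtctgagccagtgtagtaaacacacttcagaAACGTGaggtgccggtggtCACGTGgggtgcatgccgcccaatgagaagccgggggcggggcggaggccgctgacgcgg
Per1, chr11:69098699-69098948, plus strand: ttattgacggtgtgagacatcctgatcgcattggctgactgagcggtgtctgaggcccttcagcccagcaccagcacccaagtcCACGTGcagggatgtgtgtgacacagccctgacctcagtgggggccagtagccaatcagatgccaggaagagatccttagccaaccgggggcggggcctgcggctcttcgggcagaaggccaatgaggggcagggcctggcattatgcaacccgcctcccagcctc
Nr1d1, chr11:98775378-98775627, minus strand: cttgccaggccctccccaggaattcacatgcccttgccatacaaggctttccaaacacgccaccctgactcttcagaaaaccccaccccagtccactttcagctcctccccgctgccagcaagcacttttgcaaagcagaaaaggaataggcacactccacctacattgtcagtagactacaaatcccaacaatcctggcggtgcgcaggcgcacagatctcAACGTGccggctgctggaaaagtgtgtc
Per3, chr4:151044666-151044915, minus strand: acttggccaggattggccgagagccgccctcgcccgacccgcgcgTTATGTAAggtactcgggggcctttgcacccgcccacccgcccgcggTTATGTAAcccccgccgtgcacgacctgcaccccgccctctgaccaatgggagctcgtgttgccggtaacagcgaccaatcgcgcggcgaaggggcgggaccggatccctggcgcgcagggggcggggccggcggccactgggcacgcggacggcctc
Arntl, chr7:113207526-113207555, plus strand: agggaaggcagaaagTAGGTCAgggacgga
A match is a description of letters and not a binding site. None of the searched letters stood in the windows of Dbp, Nr1d2 or Clock, and many known clock elements lie elsewhere in a gene.

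The output gene and 4 of 7 repressors were read higher in the transgenic pool, while both activators and Cry1 were read lower. Of 8346 measured genes, as defined below, 4673 were read higher and 3673 lower, so 4 of 7 is near the background. By another probe set, Per3 and Clock were near 0. Dbp was 2.58-fold higher and Cry1 2.04-fold lower, Arntl was 1.72-fold lower, and Per2 and Cry2 were 1.11-fold and 1.03-fold lower. Values are MAS5 intensities on a linear scale, and differences are log2 ratios of transgenic over wild type after intensities under a floor of 19.8, the 40th percentile of both arrays, were set to it. With 1 pool a genotype no spread between mice could be estimated and no test was possible, so genotype, individual mice, pool and any difference in collection hour, age or sex between the pools cannot be told apart in any value. Clock transcripts vary with the hour of day, so this holds for Dbp, Nr1d1, Arntl and Cry1 in particular. In bulk tissue, fewer cells of a type and less RNA per cell cannot be told apart either. Probe sets of the same gene differed in log2 ratio with an SD of 0.28, pooled over 2847 genes, which is a technical yardstick only.

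At a 2-fold threshold, 1 of 10 members was higher and 1 lower, where the background over 8346 measured genes (above the floor on at least 1 array) was 0.767% higher and 0.611% lower. At 1.5-fold, 1 member, Dbp, was higher and 2, Cry1 and Arntl, were lower, against 4.09% and 2.85% of measured genes. The middle 95% of measured genes lay between log2 ratios of −0.61 and 0.70, and Dbp, Cry1 and Arntl lay outside it. Over the 5293 genes whose intensities fell within the members' own range on both arrays, 33.8 to 329, 0.435% were higher by 2-fold or more and 0.246% lower, and at 1.5-fold the shares were 3.16% higher and 1.85% lower. The median log2 ratio was 0.17 over the 10 members, with 5 positive and 5 negative. Over all measured genes it was 0.04, with 4673 positive and 3673 negative. The members were chosen with earlier results of these data known, so counts set beside these shares are a description only.

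**Figure D1:**
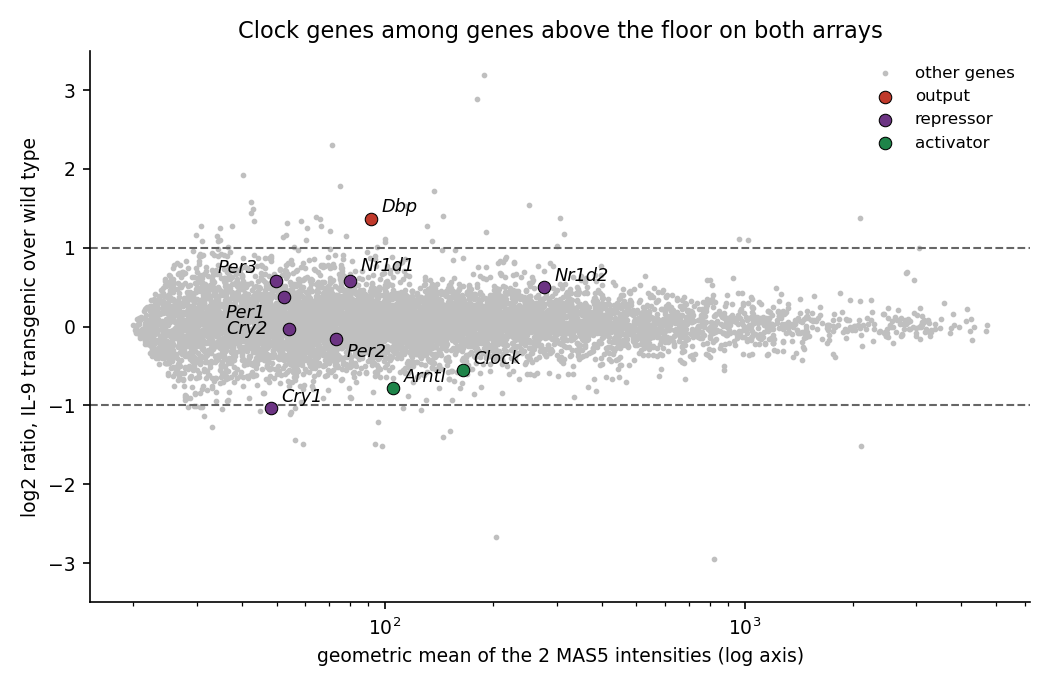
Log2 ratio of transgenic over wild type against the geometric mean of the 2 intensities (log axis) for the 7770 genes above the floor on both arrays, grey points, with the clock genes coloured by role and 2-fold marked by dashed lines. 1 gene lies beyond the vertical range. Dbp stands above the upper line and Cry1 just below the lower one, while the other 8 members lie between the lines.

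Dbp was the member with the largest difference. Its brighter probe set, 1438211_s_at, had an intensity of 147 in transgenic colon and 57.0 in wild-type colon, a log2 ratio of 1.37. Its other probe set, 1418174_at, had 71.1 in transgenic colon and 28.0 in wild-type colon, a log2 ratio of 1.35. These readings differed by less than the yardstick, and in both Dbp was higher in the transgenic pool; the _s_at type of the brighter one can bind several transcripts. By its brighter probe set Dbp ranked 24th from the highest among 8346 measured genes. The end of Dbp overlaps that of Sphk2, a sphingosine kinase gene on the opposite strand, in the RefSeq gene models. The Sphk2 probe set above the floor had 62.6 in transgenic colon and 52.5 in wild-type colon, a log2 ratio of 0.26.

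Of 7 repressors 1, Cry1, was at least 2-fold lower and 0 at least 2-fold higher, against 0.611% and 0.767% of measured genes. The repressor median log2 ratio was 0.37, with 4 positive and 3 negative, beside 4673 positive and 3673 negative among measured genes. That median was 0.068 with the dimmest measured probe sets and 0.13 with a floor at the 60th percentile. Nr1d1 and Nr1d2, the REV-ERB genes, were both higher in the transgenic pool. Nr1d1 had an intensity of 97.5 in transgenic colon and 65.4 in wild-type colon, a log2 ratio of 0.58 and just under 1.5-fold. Nr1d2 had 329 in transgenic colon and 233 in wild-type colon by 1416958_at, a log2 ratio of 0.50. Its dimmer probe set, 1416959_at, had 50.8 in transgenic colon and 42.1 in wild-type colon, a log2 ratio of 0.27, so both readings of Nr1d2 were positive. Nr1d1 overlaps the end of Thra, a thyroid hormone receptor gene on the opposite strand, and the brighter Thra probe set had 76.3 in transgenic colon and 73.5 in wild-type colon, a log2 ratio of 0.05.

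The 3 period genes encode the PER proteins, which enter the nucleus with CRY proteins to inhibit ARNTL and CLOCK, and they did not share a direction. Per1, which holds the E-box shown above and is also an acute response gene, had 59.5 in transgenic colon and 46.0 in wild-type colon, a log2 ratio of 0.37. Per2 had 69.5 in transgenic colon and 77.3 in wild-type colon by its brighter probe set, a log2 ratio of −0.15. Its other probe set was near the floor, at 22.1 in transgenic colon and 21.1 in wild-type colon, with a log2 ratio of 0.07 of the opposite sign. Per3, whose promoter carries both D-boxes shown above, had 60.9 in transgenic colon and 40.9 in wild-type colon by 1421087_at, a log2 ratio of 0.57. The second measured Per3 probe set, 1460662_at, had 31.5 in transgenic colon and 32.3 in wild-type colon, a log2 ratio of −0.03, so the higher Per3 reading rested on 1 probe set. The third, 1421086_at, did not exceed the floor on either array, with 16.5 in transgenic colon and 15.2 in wild-type colon.

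The cryptochrome genes, which encode the partners of the PER proteins, differed from each other. Cry1 had an intensity of 33.8 in transgenic colon and 69.0 in wild-type colon, a log2 ratio of −1.03. It ranked 44th from the lowest among measured genes. Cry1 passed the 2-fold threshold by a narrow margin, and it was read by 1 probe set whose ID ends in _a_at, a type shared by transcripts of a gene. Cry2 had 53.4 in transgenic colon and 54.8 in wild-type colon, a log2 ratio of −0.04. The log2 ratio of Cry1 minus that of Cry2 was −0.99, although both promoters held an E′-box.

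**Figure D2:**
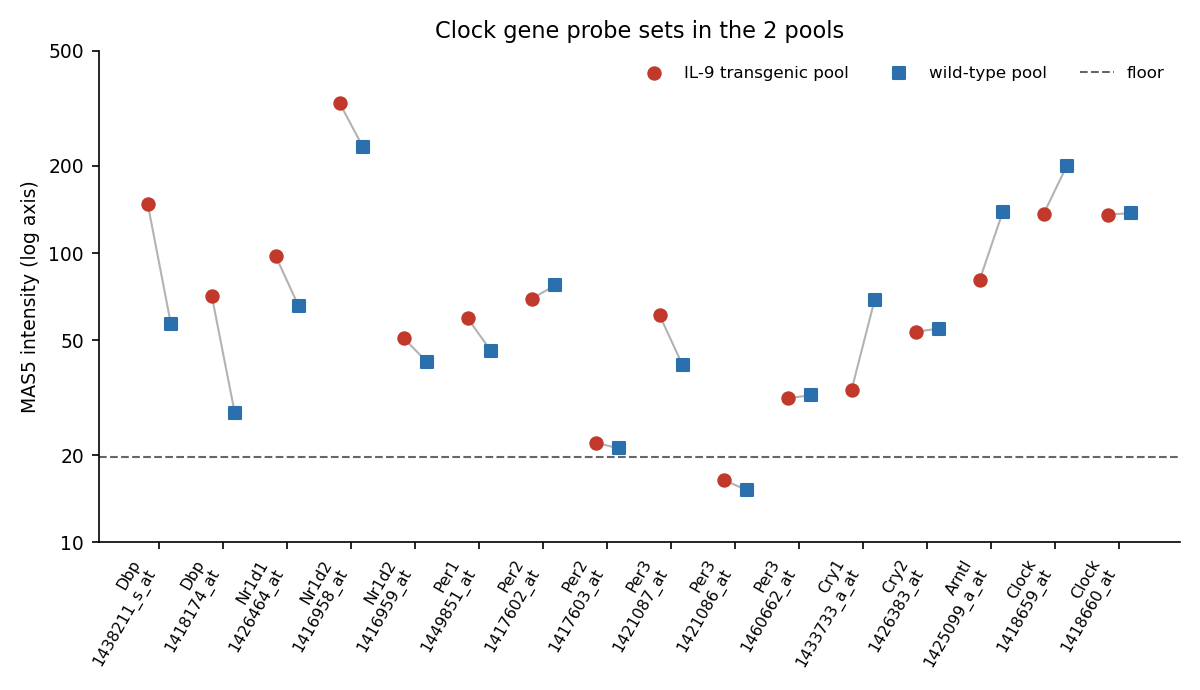
MAS5 intensity (log axis) of each of the 16 clock gene probe sets in the IL-9 transgenic pool (circles) and the wild-type pool (squares), with a line joining the readings of a probe set and a dashed line at the floor of 19.8. Both Dbp probe sets are higher in the transgenic pool, Cry1 and Arntl are lower in it, and 1 Per3 probe set is below the floor in both.

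Both activators were lower in the transgenic pool and neither reached 2-fold. Arntl, the activator without which the loop does not run in mice, had an intensity of 80.6 in transgenic colon and 138 in wild-type colon, a log2 ratio of −0.78. It ranked 93rd from the lowest among measured genes and was read by 1 probe set, also of the _a_at type. Clock had 136 in transgenic colon and 200 in wild-type colon by 1418659_at, a log2 ratio of −0.55. By its other probe set, 1418660_at, Clock had 136 in transgenic colon and 137 in wild-type colon, a log2 ratio of −0.02. The lower Clock reading therefore came from 1 of its 2 probe sets, which differed by more than the yardstick.

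Differences in log2 ratio were taken for 4 pairs of members on opposite arms of the loop. The pairs were picked by hand and hold the members with the highest and lowest ratios. Their size was therefore largely set by that choice and is given as a description only. The log2 ratio of Dbp exceeded that of Arntl by 2.15 and that of Cry1 by 2.40. Nr1d1 exceeded Arntl, the gene that its protein represses and whose RORE core is shown above, by 1.36, and Nr1d2 exceeded Arntl by 1.28. Relatives within a role were close in some cases and apart in others. Nr1d1 exceeded Nr1d2 by 0.08, whereas Per3 exceeded Per2 by 0.73 and Per1 exceeded Per2 by 0.52, and the Cry1 and Cry2 ratios lay apart as given above. The ratio of Arntl minus that of Clock was −0.23 by the brighter Clock probe set, the one that read lower.

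**Figure D3:**
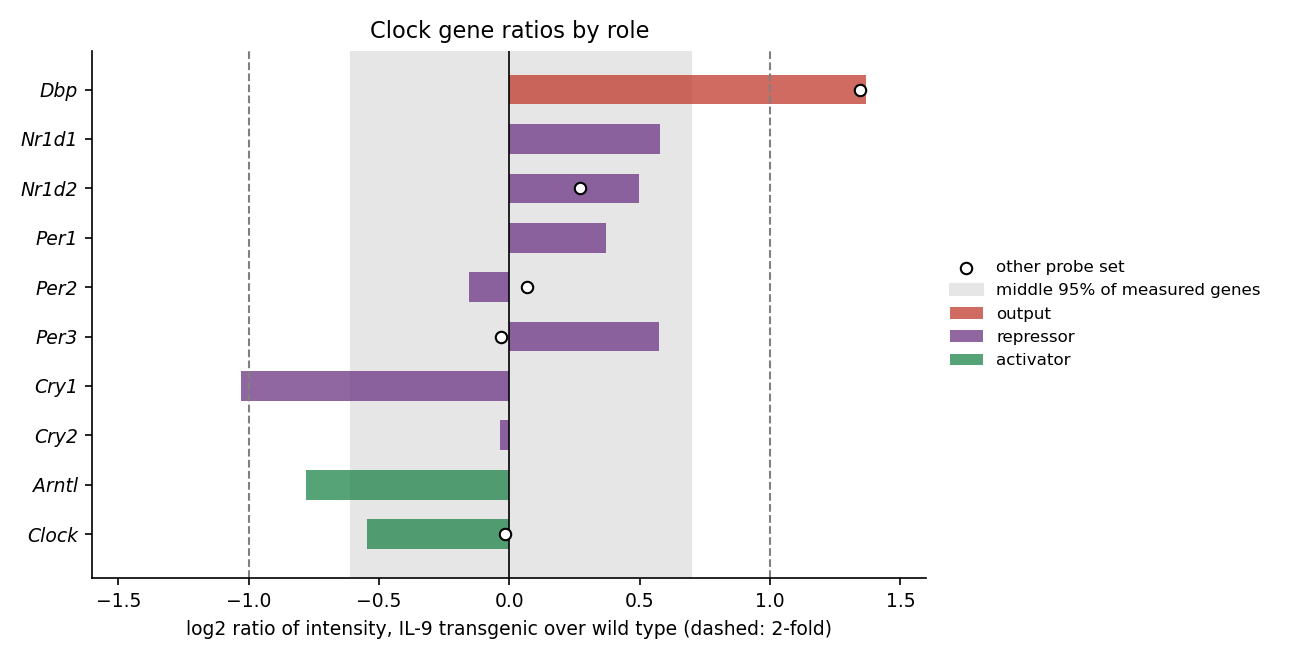
Log2 ratio of transgenic over wild type for each clock gene by its brightest probe set (bars, coloured by role), with other measured probe sets as open circles, the middle 95% of measured genes shaded and 2-fold marked by dashed lines. Dbp, Cry1 and Arntl reach beyond the shaded range, and the second probe sets of Clock and Per3 lie close to 0.

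Further genes of the clock pathway came from 5 lists of activators, repressors, Dbp relatives, modifying enzymes and controlled genes. Of 29 such genes 24 were on the array and 20 were measured. None reached 2-fold in either direction, which at background shares of 0.767% higher and 0.611% lower says little about 20 genes. At 1.5-fold 0 were higher and 3 lower, against 4.09% higher and 2.85% lower among all measured genes. Their median log2 ratio was −0.08, with 7 positive and 13 negative, beside 4673 positive and 3673 negative among all measured genes. Some of these values were close to 0, on both sides.

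Among other activators, Npas2, which can stand in for Clock, had an intensity of 52.3 in transgenic colon and 70.1 in wild-type colon by its brighter probe set. The log2 ratio of Npas2 was −0.42 by that probe set and −0.06 by the other. Rora, which encodes a receptor that activates Arntl through ROREs, had a log2 ratio of −0.38 by its brighter probe set and 0.01 by the other measured one. Both measured activators were thus negative by their brightest probe sets, and Arntl2 and Rorb were below the floor on both arrays. Among other repressors, Bhlhe40, an E-box repressor, had 370 in transgenic colon and 255 in wild-type colon, a log2 ratio of 0.54. Timeless had a log2 ratio of −0.36, and Bhlhe41 was below the floor on both arrays.

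The relatives of Dbp had small ratios. Tef and Hlf, the other PAR bZIP genes, had log2 ratios of 0.14 and 0.17. Hlf was near the floor, with 25.3 in transgenic colon and 22.4 in wild-type colon. Nfil3, whose protein competes at the same D-boxes, was below the floor on both arrays. Among 7 measured genes for kinases, a phosphatase and ubiquitin ligases of the clock, 1 was at least 1.5-fold lower and 0 at least 1.5-fold higher. The shares over all measured genes were 2.85% lower and 4.09% higher. The lower gene was Ppp1cb, a catalytic subunit of protein phosphatase 1. It had a log2 ratio of −0.67, and all 4 probe sets were negative, from −1.09 to −0.28. Csnk1d, a kinase that phosphorylates PER proteins, had 0.43 by its brightest probe set, and its 5 probe sets ran from −0.17 to 0.43. Gsk3b had 0.19 and Csnk2a1 −0.15.

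Of 7 measured genes that the clock is known to control, 2 were at least 1.5-fold lower and 0 at least 1.5-fold higher, beside 2.85% and 4.09% of all measured genes. Wee1, a cell cycle kinase gene with E-boxes, had an intensity of 43.4 in transgenic colon and 70.6 in wild-type colon, a log2 ratio of −0.70, and its other probe set −0.10. The ubiquitin protease gene Usp2 had −0.66 by its brighter probe set and 0.16 by the other, of opposite sign. Tsc22d3 had −0.33 and Tfrc −0.12. Wee1 and Usp2, which ARNTL and CLOCK are known to drive, were thus read lower by their brighter probe sets, the opposite direction to Dbp.

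Tissue markers and acute response genes were set beside these values. Colonocyte markers (9 measured of 12) had a median log2 ratio of −0.02 and summed intensities of 14504 in the transgenic pool and 14952 in the wild-type pool. Smooth muscle markers (8 of 8 measured) had a median of 0.01 and sums of 10245 in the transgenic pool and 10501 in the wild-type pool, so the defining genes of colon wall were present in both. Enteric neuron and glia markers had a median of −0.31 over 7 measured of 13 and sums of 594 in the transgenic pool and 791 in the wild-type pool, with Ret, S100b and Gfap below the floor on both arrays. Pancreatic acinar genes were at least 2-fold lower in 11 of 11 measured, with sums of 1673 in the transgenic pool and 28497 in the wild-type pool. Most of them, Cela3b, Cela2a, Ctrb1 and Prss2 among them, exceeded the floor only in the wild-type pool and counted as measured through it. B cell genes were at least 2-fold higher in 5 of 6 measured, with Pax5 and Blk below the floor. The B cell sums were 997 in the transgenic pool and 244 in the wild-type pool. Probe sets of Cd22 ran from 0.06 to 1.44 in log2 ratio and those of Ighm from 0.23 to 4.29. The B cell median was 1.29, and 0.50 with a floor at the 60th percentile. Mast cell genes were at least 2-fold higher in 5 of 10 measured, with Ms4a2 and Hdc below the floor. Of the 10 measured, 8 were positive and 2 negative. Most of the 5, Mcpt1, Mcpt2 and Fcer1a among them, exceeded the floor only in the transgenic pool and counted as measured through it. The sums were 3425 in the transgenic pool and 304 in the wild-type pool. Mcpt1 and Mcpt2, at 1297 and 1472, made up most of the transgenic sum. Beside the acinar, B cell and mast cell counts, the 2-fold shares over all measured genes were 0.767% higher and 0.611% lower. The part of these cell types in the clock gene values was not tested.

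Immediate early genes, which respond within minutes of a stimulus, had a median log2 ratio of 0.29 over 13 measured of 16. Of these 9 were positive and 4 negative, beside 4673 positive and 3673 negative among all measured genes. At 2-fold, 2 were higher, Nr4a1 at 1.22 and Atf3 at 1.11, and 0 lower. The shares over all measured genes were 0.767% higher and 0.611% lower. Their summed intensity was 4742 in the transgenic pool and 4217 in the wild-type pool, and Fosb, Egr2 and Egr3 were below the floor on both arrays. Their part in the Per1 value was not tested. Glucocorticoid target genes, a list that includes Per1, had 0 of 9 at 2-fold, which at the background shares says little about 9 genes. Their median was −0.01, with Dusp1 at 0.63, Sgk1 at −0.51 and Zbtb16 at −0.50. Their summed intensities were 3210 in the transgenic pool and 3434 in the wild-type pool. The median intensity of all probe sets was 34.2 on the transgenic array and 34.0 on the wild-type array. RNA integrity, read as the 3′ over 5′ signal of the Gapdh control probes, was 0.762 in the transgenic pool and 0.719 in the wild-type pool, and that of the Actb control probes was 1.30 in the transgenic pool and 1.38 in the wild-type pool.

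Directions were the same under all alternatives tried for 8 of the 10 members, and the exceptions were Per2 and Per3. The choice of probe set could not change the ratio of the 5 members with 1 probe set, Per1, Cry1, Cry2, Nr1d1 and Arntl. The same holds for a floor below both intensities of a gene. Part of this stability was thus fixed in advance. The log2 ratio of Dbp stayed between 1.34 and 1.37 under 9 alternatives of scaling, floor and choice of probe set, that of Nr1d1 between 0.55 and 0.58, and that of Arntl between −0.80 and −0.77 under the 8 that measured it. Cry1 ran from −1.04 to −0.33, the smaller value arising with a floor at the 60th percentile, 55.1, which lies above its transgenic intensity. Clock ran from −0.59 to −0.02 and Per3 from −0.03 to 0.57, depending on the probe set.

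**Figure D4:**
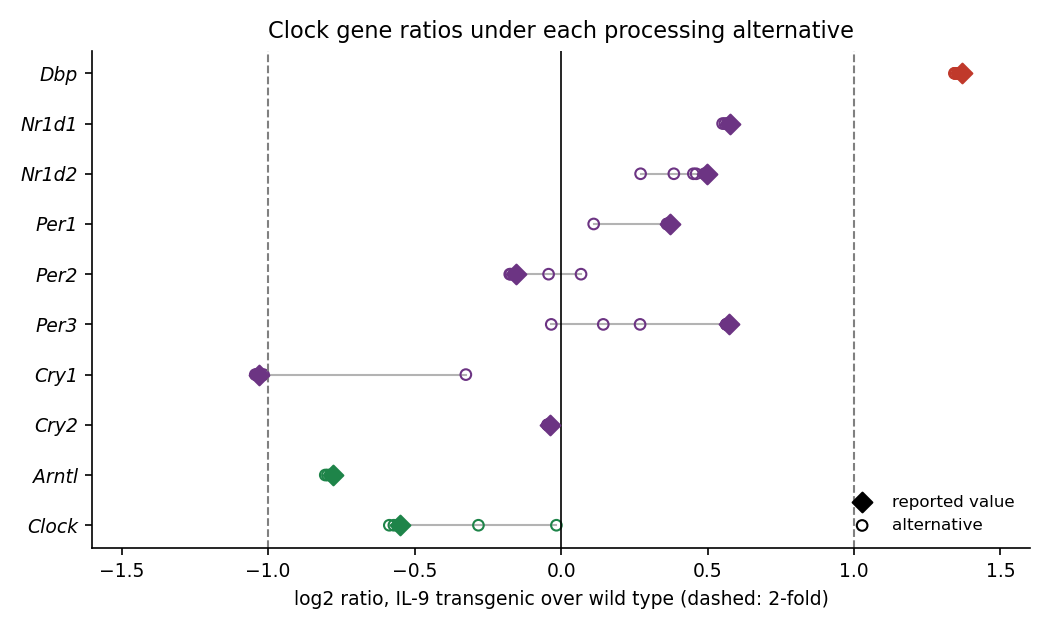
Log2 ratio of transgenic over wild type for each clock gene as reported (diamonds) and under each alternative of scaling, floor or probe set choice (open circles), with 2-fold marked by dashed lines. Dbp, Nr1d1, Cry2 and Arntl hardly move, Cry1 falls short of 2-fold with the high floor, and Per2 and Per3 each cross 0 once. Nr1d1, Cry2 and Arntl have 1 probe set each, so the choice of probe set cannot move them.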

How the data were processed

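The values the authors deposited are linear MAS5 intensities, 1 for each probe set on each array, per the submitters' processing notes; version, scaling target and genome build are not given in the sources used here. MAS5 subtracts background and mismatch signal, which makes ratios of low values unstable. RNA of 4 mice was pooled per array, and having 2 arrays limits precision.

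Of 22690 probe sets, 64 controls were left out and 20380 had 1 gene symbol. The brightest probe set on average stood for its gene. All 10 member symbols matched RefSeq (GRCm38.p6) by gene identifier. Intensities under the 40th percentile were set to it, and log2 ratios were taken with pandas 2.3.3 and numpy 2.4.6. No test was run, and thresholds of 2-fold and 1.5-fold are descriptive. The procedure was run on simulated data whose planted changes were larger than the ratio of any member. That run therefore does not bear on ratios of the size reported here.

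Every member and probe set is reported, and from other lists the genes with the largest ratios, up to 4 each. Members and lists were chosen with earlier results of these data known.

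Alternatives were median scaling, quantile normalization, loess (span 0.3, statsmodels 0.14.6), floors at the 20th and 60th percentiles, a pseudocount of 0.735 with no floor, the mean of all probe sets, the dimmest measured one, and leaving out IDs ending in _s_at, _x_at or _a_at.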

Additional observations from a re-analysis of the deposited data

How the results depend on the processing

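Of the counts and role medians, 49 of 54 values under the alternatives stayed within 1.5 times the count or within the probe-set SD of 0.28 of the median. With the floor raised to the 60th percentile, 0 clock genes were at least 2-fold lower and 1 at least 1.5-fold lower, since the floor of 55.1 lies above the transgenic Cry1 intensity. Without probe sets ending in _s_at, _x_at or _a_at, 0 were at least 2-fold lower and 0 at least 1.5-fold lower, because Cry1 and Arntl then had no probe set. The repressor median was 0.068 with the dimmest measured probe set of each gene. Under loess 3 members were at least 1.5-fold lower, Clock being the third. The counts of higher members were 1 under all alternatives run, and all rested on Dbp alone. No paired analysis was possible because each genotype had 1 pool. Intensities close to the floor, such as those of the dimmer Per2 probe set, set the limit of what these arrays can show.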
